A study of Mus musculus with 30 samples.

Results

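The effect of dietary selenium on the transcriptional response to a high dose of methylmercury (MeHg) was read as an interaction, the change from Se_Ctr to Se_HD minus the change from Ctr to HD, taken gene by gene on log2(normalized count + 1). It used 20 of the 30 hippocampal RNA-seq libraries of the series, chosen by their treatment labels alone, with 5 male BALB/c mice in each of the 4 groups. Ctr mice received neither added selenium nor mercury, HD mice received feed with 5 mg MeHg per kg, Se_Ctr mice received selenium and Se_HD mice received selenium together with the high mercury dose. For the Ctr and HD diets the study's methods give arrival at 2 to 3 weeks of age and 11 weeks of feeding on a purified diet. The series title names selenium-methionine, the amino acid form of selenium, and its amount in the feed, like the selenium content of the unspiked diet, is not given in the sources used here. A negative interaction means that the change with mercury was lower (a smaller rise or a larger fall) on the selenium diet than on the diet without added selenium, and a positive interaction means the reverse. The 10 libraries of the low mercury dose (LD and Se_LD) were used only to place levels.

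Methylmercury crosses the blood-brain barrier and binds thiol groups and, more strongly, the selenol groups of selenoproteins such as the glutathione peroxidases and thioredoxin reductases. Microglia are the resident macrophages of the brain. They sense their surroundings through receptors coupled to the adaptor Tyrobp, and when activated they raise C1q, the recognition part of the complement cascade, together with lysosomal proteases. Astrocytes respond to injury by raising the filament protein Gfap, and cells bind excess metal with metallothioneins.

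Many genes of microglia, complement, lysosomes and reactive astrocytes rose with mercury on the diet without added selenium. At p under 0.05, 15 of 18 markers of resting microglia and 16 of 26 reactive astrocyte genes were higher in HD than in Ctr mice (6.78% of all genes were), whereas 0 and 1 of them were higher in Se_HD than in Se_Ctr mice (1.71% of all genes were). A call on the first diet and none on the second does not show that the diets differ, which the interaction tests. In the interaction itself, 943 of 20582 genes (4.58%) had an unadjusted p under 0.05, of which 579 were negative (2.81%) and 364 were positive (1.77%). The share of 4.58% is not above the 5% that the threshold itself allows. After Benjamini-Hochberg adjustment over all genes, limma called 0 genes (0%) for the interaction. The lowest adjusted p was 0.177, and edgeR called 0 as well. DESeq2 on the reads recovered from the table called 3, which were C1qb (adjusted p = 0.0136), Tyrobp and Mpeg1 (both adjusted p = 0.017). Leaving out HD mouse 27 raised the limma count to 10. The interaction of any named gene below therefore passed an unadjusted threshold only, unless stated otherwise, and the p-values measure the spread between these mice.

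The mercury effects that the interaction compares differed in extent. HD against Ctr gave 2366 genes at p under 0.05 (11.5%; 1396 higher, 6.78%, and 970 lower, 4.71%) and 122 after adjustment (0.593%; 96 higher and 26 lower). The adjusted count ran from 42 to 295 with a mouse left out. Se_HD against Se_Ctr gave 556 genes (2.7%; 351 higher, 1.71%, and 205 lower, 0.996%) and 0 after adjustment (0%) with limma, edgeR and DESeq2. Neither pair of groups shares a mouse with the other. Of the 943 genes with an interaction, 404 were higher with mercury on the diet without added selenium and not called on the selenium diet, and 229 were lower there and not called on the selenium diet. A further 68 were higher and 38 lower on the selenium diet alone, 12 were called on both diets and 192 on neither. The median 95% interval of an interaction reached 0.39 to either side on the log2 scale for genes averaging 10 or more normalized counts, 0.70 for means of 10 to 100 and 0.28 for means of at least 1000, so that interactions smaller than this were not detectable for most genes.

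**Figure D1:**
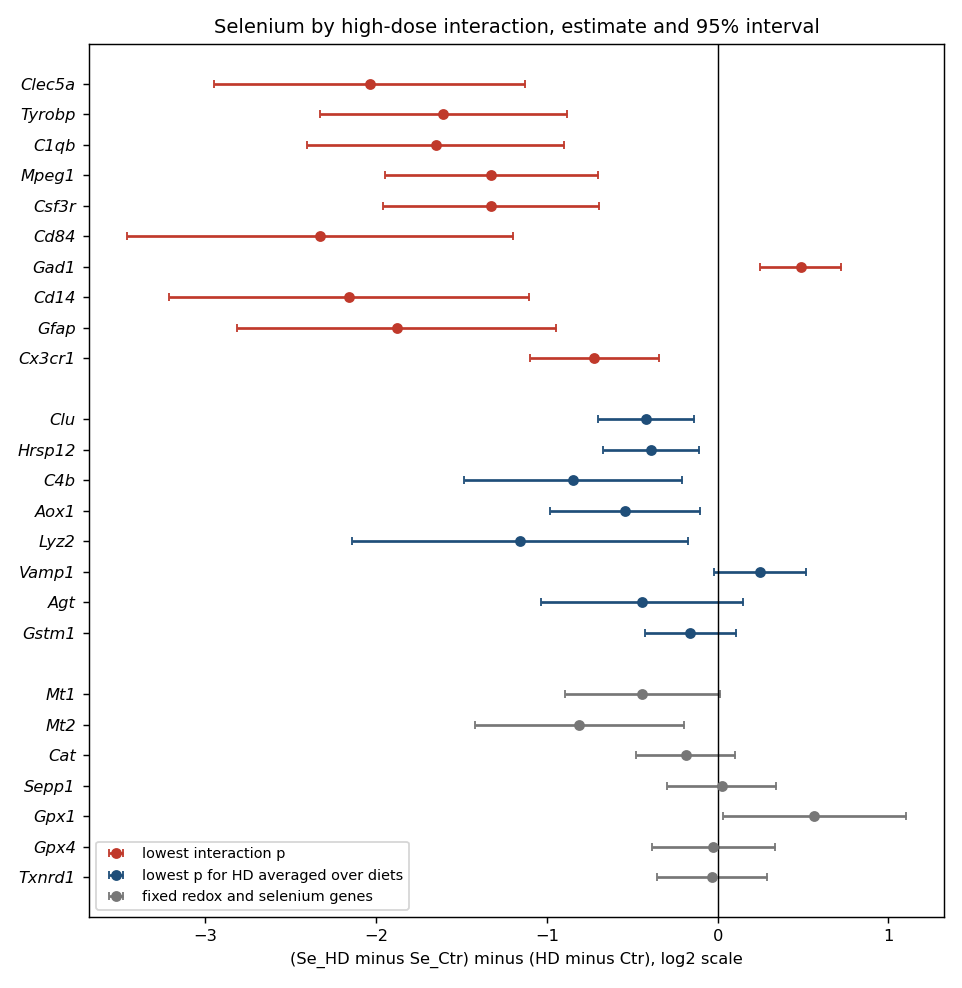
Interaction estimates on the log2 scale (horizontal axis) with 95% intervals for the 10 genes with the lowest interaction p (red), 8 further genes with the lowest p for the mercury effect averaged over diets (blue) and 7 fixed redox and selenium genes (grey), with a vertical line at 0. Of the red genes, 9 lie left of the line, from Cd84 at −2.33 to Cx3cr1 at −0.72, and Gad1 lies right of it at 0.49, while the intervals of Gstm1, Agt, Vamp1, Gpx4, Txnrd1 and Sepp1 cross it.

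The promoters of 3 genes that are described below are shown here. Clec5a and Csf3r are the 2 that held the searched motif among the 7 genes with a window and with the lowest negative interaction p-values, and Mt2 is a metallothionein whose interaction passed at p under 0.05. The windows run from 250 bases before to 50 after the gene start in RefSeq (GRCm38.p6, a build other than that of the count table), read 5′ to 3′ on the gene's strand. Capitals mark matches on either strand of GAGGAAG, a core of the sites bound by the myeloid factor PU.1, in Clec5a (chr6:40585756-40586055, minus strand, 2 matches) and Csf3r (chr4:126024409-126024708, plus strand, 1 match). In Mt2 (chr8:94172368-94172667, plus strand) they mark 6 matches of TGCNCNC, a looser form of the metal response element core. That core has A or G after TGC, and not all 6 matches do.
Clec5a: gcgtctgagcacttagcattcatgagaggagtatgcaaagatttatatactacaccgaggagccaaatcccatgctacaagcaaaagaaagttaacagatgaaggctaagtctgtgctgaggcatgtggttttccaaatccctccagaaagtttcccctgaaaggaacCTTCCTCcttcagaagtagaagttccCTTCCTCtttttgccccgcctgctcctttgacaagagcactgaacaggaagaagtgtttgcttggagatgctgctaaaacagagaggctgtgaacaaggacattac
Csf3r: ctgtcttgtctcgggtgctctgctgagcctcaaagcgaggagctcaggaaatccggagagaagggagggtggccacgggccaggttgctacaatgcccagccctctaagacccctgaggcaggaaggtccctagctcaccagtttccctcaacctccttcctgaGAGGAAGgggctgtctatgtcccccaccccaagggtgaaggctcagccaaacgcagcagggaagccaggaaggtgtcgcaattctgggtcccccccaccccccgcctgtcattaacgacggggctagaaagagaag
Mt2: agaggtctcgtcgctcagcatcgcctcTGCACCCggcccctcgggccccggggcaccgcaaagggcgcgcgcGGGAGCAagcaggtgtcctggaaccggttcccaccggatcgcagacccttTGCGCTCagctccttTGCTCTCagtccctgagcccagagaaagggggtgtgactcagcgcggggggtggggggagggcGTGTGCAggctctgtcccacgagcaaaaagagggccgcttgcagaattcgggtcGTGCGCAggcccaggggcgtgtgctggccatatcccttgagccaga
Of all 32851 promoter windows of that length, 13.6% held GAGGAAG and 51% held TGCNCNC. Of the 60 named genes with a negative interaction at p under 0.05, 43 had a window. In 12 of these, any window of the gene held GAGGAAG (27.9%), among them C1qc, Itgam, Trem2 and Ctss. This is a share of genes, some of which may have several windows, and the 13.6% is a share of single windows, so that they are unlike measures. The other 5 windows of the lowest-p genes, that of C1qb among them, held 0 matches. A match is a description of the letters and was not read as a binding site.

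Microglial genes had mostly negative interactions. Among 18 markers of resting microglia, 13 had a negative interaction at p under 0.05 and 0 a positive one, against 2.81% and 1.77% of all genes, and the median interaction was −0.73 against −0.01 over all genes tested. In this list, 15 genes were higher in HD than in Ctr mice and 0 were higher in Se_HD than in Se_Ctr mice (6.78% and 1.71% of all genes), with median changes of 0.73 and 0.07. Among 25 genes of activated microglia, 16 were negative and 0 positive. Of the 25, 22 were higher with mercury without added selenium and 1 was higher with it (6.78% and 1.71% of all genes), and the median changes were 1.75 and 0.26. Resting and activated lists overlap with the complement and lysosome lists in several genes, so that their counts are not separate evidence. In whole tissue, fewer cells of a type and less RNA per cell cannot be told apart.

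Tyrobp (ENSMUSG00000030579, chr7:31198807-31202596 in NCBIM37), the adaptor that carries signals from Trem2 and related receptors, had 58, 89.5, 76.6, 70.9 and 54.1 normalized counts in the 5 Ctr mice and 173, 402, 189.6, 387 and 118 in the HD mice. On the selenium diet it had 76.1, 61.7, 68.3, 94.9 and 60.9 in Se_Ctr and 69.6, 67.8, 68.1, 78.4 and 106 in Se_HD mice. Every HD mouse lay above every mouse of the other groups, and the selenium-fed groups overlapped. The change with mercury was 1.71 on the log2 scale without added selenium and 0.10 with it, an interaction of −1.61 (95% interval −2.33 to −0.88; adjusted p = 0.459 by limma with Benjamini-Hochberg adjustment). Fits that each dropped a single mouse gave −1.84 to −1.40, with p under 0.05 in every fit.

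Mpeg1 (ENSMUSG00000046805, chr19:12535269-12539774 in NCBIM37), a pore-forming protein of macrophages, had no overlap between the selenium-fed groups. It had 284, 209.7, 340.3, 277 and 272 normalized counts in Ctr and 862, 1479.8, 706, 1585 and 457 in HD mice. On the selenium diet the values were 266, 252, 232, 229.7 and 285 in Se_Ctr and 311, 332, 344, 339 and 361 in Se_HD mice. All 5 Se_HD values lay above all 5 Se_Ctr values, at a distance of 0.42 on the log2 scale that did not pass the test, against 1.75 without added selenium. The interaction was −1.33 (95% interval −1.95 to −0.70; adjusted p = 0.459 by limma with Benjamini-Hochberg adjustment).

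Several genes that were named for their low p or low estimate encode surface receptors of myeloid cells. Clec5a, a receptor that signals through Tyrobp-family adaptors, ranged over 5.11 to 15.7 normalized counts in Ctr, 21.8 to 58.8 in HD, 9.5 to 15.7 in Se_Ctr and 10.1 to 14.2 in Se_HD mice, with an interaction of −2.04 (−2.95 to −1.13). Csf3r, the receptor of granulocyte colony-stimulating factor, had an interaction of −1.33 (−1.96 to −0.69). The estimates were −2.33 for Cd84, a receptor of the SLAM family, and −2.16 for Cd14, the co-receptor for lipopolysaccharide. Clec7a, the receptor for fungal beta-glucan, had −2.64 (−4.36 to −0.93) and Cd180, a relative of the Toll-like receptors, −2.28 (−3.86 to −0.69). Clec7a averaged 5.22 normalized counts in Ctr, 3.31 in Se_Ctr and 3.37 in Se_HD mice, so that it reached the mean of 10 through HD mice alone, as did Itgax. The lowest HD values of Clec7a and Cd180 (4.36 and 6.98) lay below the highest of the other 25 mice (13.6 and 17.9). Under other settings their estimates were as small as −1.59 and −1.46. Itgax, the integrin that marks phagocytic microglia, ranged over 0 to 3.84 in Ctr, 7.85 to 90.8 in HD, 0.827 to 9.38 in Se_Ctr and 2.28 to 6.36 in Se_HD mice. Its interaction of −3.04 (−4.76 to −1.32) depends on few counts in 3 of the groups and on the pseudocount. Each of these 7 interactions kept p under 0.05 with every mouse left out.

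Markers of microglial identity were among the negative genes too. Cx3cr1, the fractalkine receptor, ranged over 476 to 616 normalized counts in Ctr, 596 to 1174 in HD, 476 to 659.5 in Se_Ctr and 488 to 604 in Se_HD mice, an interaction of −0.72 (−1.10 to −0.34). Trem2, the lipid-sensing receptor, had an interaction of −1.06 and Csf1r, the receptor on whose signal microglia depend, −0.58. Tmem119, a surface protein specific to microglia in the brain, had −0.42 (−0.78 to −0.06), which passed p under 0.05 in 19 of 20 fits with a mouse left out and not without HD mouse 9, where it was −0.29. The HD mice themselves were spread widely. Their mean log2 level over the 17 resting markers with a mean of at least 10, relative to the Ctr mean, ran from 0.30 to 1.41, against −0.07 to 0.08 in Ctr, −0.03 to 0.17 in Se_Ctr and 0.06 to 0.31 in Se_HD mice. For 21 genes of the activated list the same scores were 0.49 to 2.88 in HD, −0.33 to 0.35 in Ctr, −0.05 to 0.06 in Se_Ctr and 0.01 to 0.52 in Se_HD mice. The lowest HD score lay within the Se_HD range on both lists, and HD mice 9 and 21 were highest and HD mouse 27 lowest of the HD mice on both lists. The median standard deviation of a resting marker was 0.60 in HD mice on the log2 scale and 0.18, 0.17 and 0.16 in Ctr, Se_Ctr and Se_HD mice. When single mice were dropped, the number of negative interactions ran from 9 (without HD mouse 9) to 15 in the resting list and from 13 to 19 in the activated list.

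**Figure D2:**
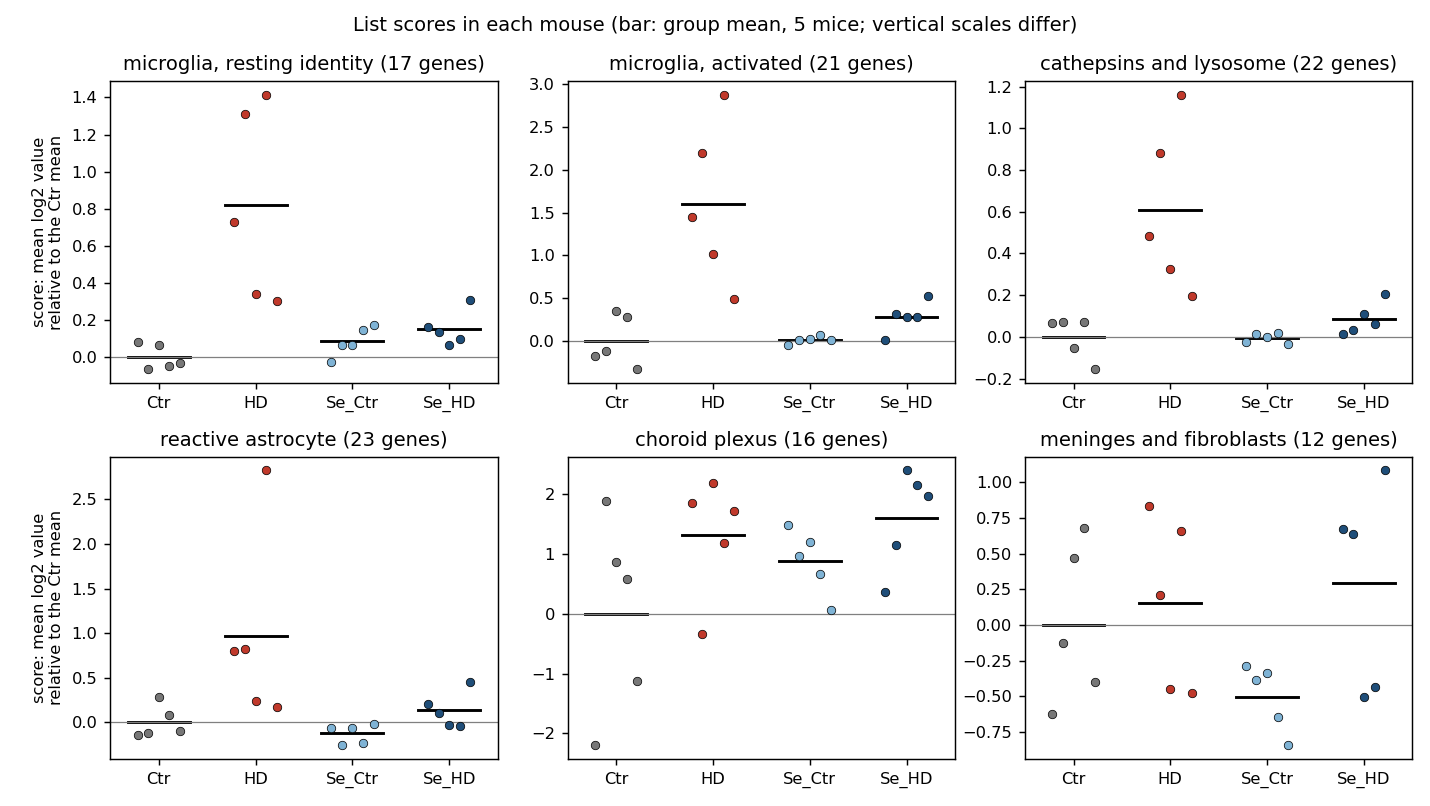
Mean log2 level over each gene list for each mouse, relative to the mean of the Ctr mice (vertical axis), in the 4 groups of 5 mice (points, with bars for group means), over the genes of each list with a mean of at least 10. Scores of the microglial lists in HD mice lie at or above 0.30, while those of Se_HD mice reach 0.31 on the resting list and 0.52 on the activated list, so that HD mouse 27 lies within their range on both.

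The complement list held 6 negative and 0 positive interactions among 15 genes tested (2.81% and 1.77% of all genes), with a median of −0.85. All 3 chains of C1q were among the negative ones. Of the 15, 9 were higher in HD than in Ctr mice and 1 was higher in Se_HD than in Se_Ctr mice (6.78% and 1.71% of all genes). C1qb (ENSMUSG00000036905, chr4:136436044-136442102 in NCBIM37) had 147, 143, 95.3, 119 and 98 normalized counts in Ctr and 268, 522, 498, 790.0 and 165 in HD mice. With selenium it had 149, 141, 132, 137 and 99.5 in Se_Ctr and 132, 142, 134, 119.9 and 155 in Se_HD mice. The lowest HD value lay just above the highest value of the selenium-fed mice, and the selenium-fed groups overlapped. Its interaction was −1.65 (95% interval −2.41 to −0.90; adjusted p = 0.459 by limma with Benjamini-Hochberg adjustment), the difference between a change of 1.71 and one of 0.06. C1qa had −1.23 (−1.88 to −0.59) and C1qc −1.30 (−2.07 to −0.53). Itgam, a chain of complement receptor 3, and C3ar1, the receptor of the C3a fragment, had interactions of −1.10 and −1.35.

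C4b (ENSMUSG00000073418, chr17:34865325-34880827 in NCBIM37), the complement component cleaved downstream of C1q, was an exception in that it rose on both diets. Its reads cannot be separated with certainty from those of its near-identical copy C4a. It had 233, 249, 296, 265 and 211 normalized counts in Ctr and 772, 1102, 492, 1573 and 519 in HD mice, and 209, 207, 206, 158 and 297 in Se_Ctr and 418, 349.9, 335, 367 and 437 in Se_HD mice. Mercury-fed mice lay above their controls on both diets, and all HD mice lay above all Se_HD mice. The change was 1.69 without added selenium and 0.84 with it, both past the unadjusted threshold, and the interaction was −0.85 (−1.48 to −0.21), which held in every fit with a mouse left out (−1.03 to −0.61).

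The lysosome list held 11 negative and 0 positive interactions among 22 tested (2.81% and 1.77% of all genes) and a median of −0.49. Of the 22, 19 were higher with mercury without added selenium and 2 with it (6.78% and 1.71% of all genes), at median changes of 0.63 and 0.08. Ctsd, the main aspartic protease of lysosomes, ranged over 2119.6 to 3164 normalized counts in Ctr, 3375 to 8699 in HD, 2574 to 2917 in Se_Ctr and 2617 to 3419 in Se_HD mice, an interaction of −0.83 (−1.36 to −0.29). Npc2, the cholesterol carrier of the lysosome lumen, had −0.54 (−0.86 to −0.22). Ctss and Ctsz, cathepsins of antigen-presenting cells, had −0.92 and −0.80, and Cd68, a lysosomal membrane protein of macrophages, −1.31. Ctsh was less certain at −0.66, passing in 15 of 20 fits with a mouse left out and not without HD mouse 21, where it was −0.44.

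**Figure D3:**
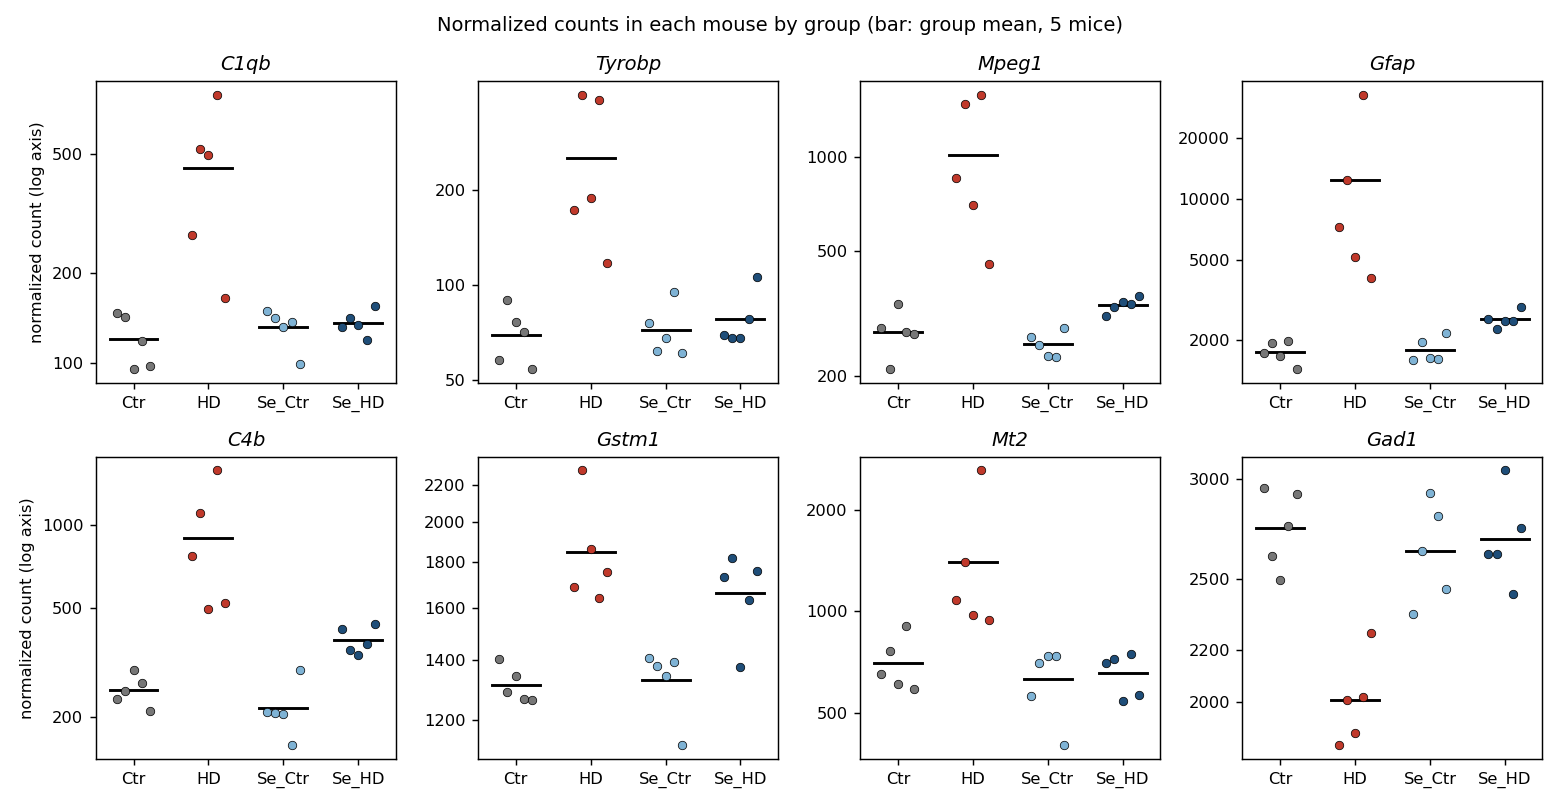
Normalized counts (vertical axes, log scale) of single mice (points) in the Ctr, HD, Se_Ctr and Se_HD groups, with bars for group means, for 8 genes whose values are given in the text. HD mice stand above the other 15 mice for Tyrobp, C1qb, Mpeg1, Gfap and C4b and below them for Gad1.

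Reactive astrocyte genes depended more on a single mouse. Gfap (ENSMUSG00000020932, chr11:102748650-102762226 in NCBIM37), the filament protein of astrocytes, had 1722, 1929.5, 1673, 1988 and 1430.0 normalized counts in Ctr and 7281, 12446, 5143, 32820.3 and 4080.2 in HD mice. It had 1596, 1949.6, 1637, 1610.4 and 2165 in Se_Ctr and 2546, 2264, 2499, 2491 and 2909 in Se_HD mice. HD mice did not overlap with any other group, HD mouse 21 stood far above the rest, and all Se_HD values were above all Se_Ctr values. The change with mercury was 2.39 without added selenium and 0.51 with it, of which the latter did not pass, an interaction of −1.88 (95% interval −2.81 to −0.94; adjusted p = 0.518 by limma with Benjamini-Hochberg adjustment). Without HD mouse 21 it was −1.42. Serpina3n, a secreted protease inhibitor, had −1.14 (−1.88 to −0.40), and −0.74 without that mouse.

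Over 26 reactive astrocyte genes, 5 interactions were negative and 0 positive (2.81% and 1.77% of all genes), with a median of −0.84. Without HD mouse 21 there were 2 negative and 1 positive, at a median of −0.38, and without HD mouse 27 there were 11 negative. On the recovered reads, edgeR gave 11 negative and DESeq2 9, at medians of −1.15. The median standard deviation of a gene in this list was 1.05 in HD mice and 0.39, 0.33 and 0.36 in Ctr, Se_Ctr and Se_HD mice. Of 14 genes of resting astrocyte functions, 3 were negative and 0 positive. They were Sox9, a transcription factor of astrocytes (−0.57, −0.90 to −0.24), Aqp4, the water channel of astrocyte endfeet (−0.87), and Atp1b2, a subunit of their sodium pump (−0.42), of which Aqp4 passed in 14 of 20 fits, not without Se_Ctr mouse 28 (−0.79), and was −0.45 without HD mouse 21, and Atp1b2 in 13, not without HD mouse 21 (−0.27). Clu, the secreted chaperone clusterin, had −0.42 (−0.70 to −0.14) and passed in all of them.

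Among genes of the metal and oxidant responses, 2 of 5 metallothionein and zinc-responsive genes and 2 of 24 genes of the NRF2 axis and glutathione synthesis had a negative interaction, and 0 a positive one, against 2.81% and 1.77% of all genes. The NRF2 count ran from 1 to 4 with a mouse left out. Mt2 (ENSMUSG00000031762, chr8:96696518-96697467 in NCBIM37), whose promoter is printed above, had 651, 761, 609, 903 and 589 normalized counts in Ctr and 1082, 1398, 975, 2615 and 940.4 in HD mice. With selenium it had 559, 704, 736, 737 and 401 in Se_Ctr and 703, 723, 542, 748 and 566 in Se_HD mice. Without added selenium the mercury-fed mice lay above all controls, and with selenium the groups overlapped, at changes of 0.90 and 0.09 and an interaction of −0.81 (−1.42 to −0.20). Mt1 had −0.44 (−0.89 to 0.01), which did not pass, and Mt3, the metallothionein of the nervous system, −0.38 (passing in 18 of 20 fits, and −0.26 without Ctr mouse 25, where it did not pass). Hmox1, the haem-degrading enzyme induced by oxidants, ranged over 30.4 to 49.1 in Ctr, 58.5 to 230.2 in HD, 39.4 to 47.5 in Se_Ctr and 42.7 to 63.7 in Se_HD mice, an interaction of −1.06 (−1.80 to −0.32). Srxn1, which reduces oxidised peroxiredoxins, had −0.30 and passed in 12 of 20 fits, not without Ctr mouse 13 (−0.23). The median interaction of the NRF2 list was −0.08. Of 10 other antioxidant enzymes, Prdx6, a peroxiredoxin, alone passed (−0.48, and −0.34 without HD mouse 21, where it did not pass). Catalase (Cat) had −0.19 (−0.48 to 0.10), and −0.26 to −0.11 with a mouse left out.

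Selenoprotein transcripts, which carry the element in their protein products, had 0 negative and 2 positive interactions among 18 tested, against 2.81% and 1.77% of all genes, with 9 estimates on either side of 0 and a median of 0.01. Sepw1 (ENSMUSG00000041571, chr7:16502557-16507751 in NCBIM37), a small redox selenoprotein of muscle and brain, had 5844, 5344, 5091, 5297 and 3858 normalized counts in Ctr and 3375, 2979.6, 4564, 2386 and 2980.1 in HD mice. It had 6021, 6768, 5447, 6224 and 5407 in Se_Ctr and 5145, 5108, 5054, 5423 and 5095 in Se_HD mice. HD mice overlapped with Ctr mice in part but lay below every selenium-fed mouse. The change of −0.66 without added selenium passed adjustment (limma with Benjamini-Hochberg, adjusted p = 0.0116), and that of −0.21 with selenium did not pass even unadjusted. The interaction was 0.46 (0.09 to 0.82), with p under 0.05 whichever mouse was left out. Gpx1, the cytosolic glutathione peroxidase, had 0.57 (0.03 to 1.10), which passed in 10 of 20 such fits and was 0.36 without HD mouse 15.

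For 3 further selenoproteins the interval covered 0. Gpx4, the phospholipid hydroperoxide reductase, had −0.03 (−0.39 to 0.33). Txnrd1, the cytosolic thioredoxin reductase, had −0.03 (−0.35 to 0.29), and Sepp1, the plasma carrier of selenium, 0.02 (−0.29 to 0.34). Interactions as large as the ends of these intervals remain possible. Of 13 genes that make or handle selenoproteins, 0 passed in either direction (4.58% of all genes did).

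Inhibitory neuron genes leaned the other way in the sign of their estimates. Of 20 tested, 18 had a positive estimate, against 9934 of 20582 over all genes, with a median of 0.23. Only Gad1 passed at p under 0.05, against 1.77% of all genes positive and 2.81% negative. With a mouse left out, 1 to 3 were called positive and 0 to 1 negative. The median was 0.13 without HD mouse 21, 0.14 without Se_Ctr mouse 28 and 0.11 without Ctr mouse 1 and HD mice 15 and 21. The list score of Se_Ctr mouse 28 was −0.53, against 0.07 to 0.19 in the other Se_Ctr mice. Gad1 (ENSMUSG00000070880, chr2:70391129-70440071 in NCBIM37), which makes the transmitter GABA from glutamate, had 2955, 2609.8, 2498, 2754 and 2923 normalized counts in Ctr and 1848, 2005, 1888, 2018 and 2269 in HD mice. It had 2346, 2635, 2925, 2808 and 2455 in Se_Ctr and 2619, 2618, 3049.7, 2433 and 2745 in Se_HD mice. All HD mice lay below all mice of the other 3 groups, which overlapped. Gad1 fell by 0.45 on the log2 scale without added selenium and differed by 0.03 with it, an interaction of 0.49 (95% interval 0.25 to 0.72; adjusted p = 0.459 by limma with Benjamini-Hochberg adjustment) and 0.44 to 0.53 with each mouse left out. Vamp1, a vesicle protein of fast-spiking neurons, fell on both diets, by 0.50 and by 0.25, and its interaction of 0.25 (−0.02 to 0.52) did not pass and was 0.15 without Ctr mouse 1. The 14 markers of hippocampal subfields were all detected and gave 0 interactions at p under 0.05 (4.58% of all genes did).

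**Figure D4:**
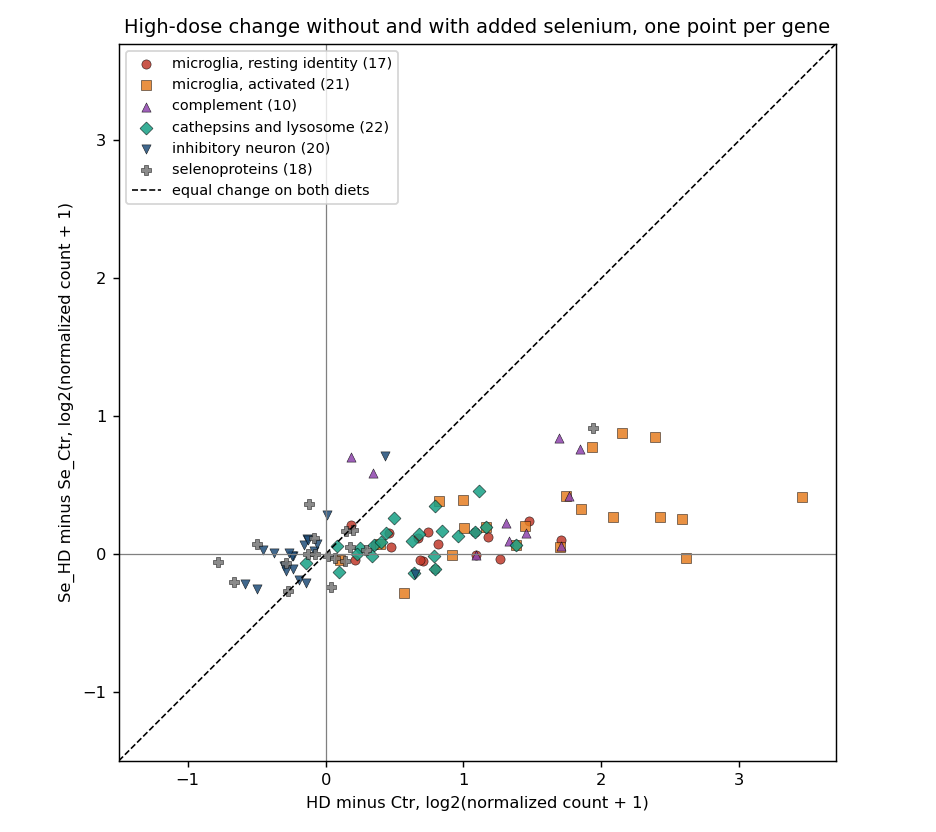
Change with high-dose mercury on the selenium diet (vertical axis, log2) against the change on the diet without added selenium (horizontal axis, log2) for the genes of 6 lists, with the line of equal change. Below the line lay 16 of the 17 resting and 21 of the 21 activated microglial genes plotted, and 2 of the 20 inhibitory neuron genes.

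A response on both diets was looked for with the mercury effect averaged over diets. HD mice varied more than the other groups (above), so that a high HD mean raises this average and lowers the interaction together, and the interactions of genes chosen by it are a description and no test. Of all genes, 28 passed adjustment for that average (0.136%), 24 higher and 4 lower with mercury, a count that ran from 7 to 94 with a mouse left out, was 1 by limma without a trend and 10 with the choroid plexus score as a covariate. All 28 had the smaller change on the selenium diet, 27 had the same sign on both, and 20 had an interaction at p under 0.05, with median changes of 1.03 without and 0.30 with added selenium. Gstm1 (ENSMUSG00000058135, chr3:107815173-107820891 in NCBIM37), a glutathione transferase whose reads may be shared with its close relatives, was among those with the nearest changes. It had 1403, 1289, 1344, 1266 and 1263 normalized counts in Ctr and 1689, 2282, 1864, 1645 and 1757 in HD mice, and 1406, 1378, 1344, 1391 and 1124 in Se_Ctr and 1735, 1823, 1375, 1632 and 1761 in Se_HD mice. The groups were apart without added selenium and overlapped slightly with it, at changes of 0.48 and 0.32 and an interaction of −0.16 (−0.43 to 0.11), which was −0.08 without HD mouse 9. Agt, the precursor of angiotensin made by astrocytes, had 1.02 and 0.58 with an interaction of −0.44 (−1.04 to 0.15) that did not pass. It passed in 1 of 20 fits with a mouse left out and in 1 of 15 other settings, over which it ran from −0.77 to −0.42. Aox1, an aldehyde oxidase, and Hrsp12, an enamine deaminase, rose on both diets and had interactions of −0.54 and −0.39. Lyz2, the lysozyme of macrophages, which shares sequence with Lyz1, had changes of 1.93 and 0.78 and an interaction of −1.16 that missed the threshold without HD mouse 21 (−0.89) or Se_HD mouse 18 (−0.95).

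Of the 122 genes that passed adjustment in HD against Ctr, 97 had the same sign on the selenium diet (79.5%, against 55.8% of all genes), 12 were called there with the same sign at p under 0.05 (2.7% of all genes were called there in either direction), and all 122 had a smaller change there. Those genes were chosen for a large change in the first pair of groups, so that a smaller change in the other pair is a description and no test. In the reverse reading, 376 of the 556 genes called on the selenium diet had the same sign without added selenium, 98 were called there with the same sign (11.5% of all genes were called there in either direction) and 485 had a smaller change there.

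The 5 highest positive estimates that passed at p under 0.05, among genes averaging 10 or more, belonged to the RNA component RNase_MRP (2.07), Itih2, Slc6a12, Fggy and the mitochondrial tRNA mt-Ty (1.63). Fggy, a carbohydrate kinase, had 13.3, 11.5, 28.9, 12.3 and 22.5 normalized counts in Ctr, 9.64, 13.3, 8.07, 17.1 and 13.1 in HD, 6.62, 12.3, 6.05, 4.69 and 8.06 in Se_Ctr and 24.7, 19.8, 13.6, 17 and 15.9 in Se_HD mice. It differed by −0.45 without added selenium, which did not pass, and rose by 1.20 with selenium, an interaction of 1.65 (0.77 to 2.53) that held with every mouse left out. Under 15 other settings the Fggy estimate ran from 0.98 to 1.78, with p under 0.05 in each. Slc6a12, the betaine transporter, had 1.92 and Itih2, a chain of a hyaluronan-binding protease inhibitor, 1.94, passing in 17 and 14 of 20 fits and not without Ctr mouse 19 (1.54) or HD mouse 15 (1.32), respectively. RNase_MRP and mt-Ty passed in 12 and 14 fits. The calls of Itih2, Slc6a12 and mt-Ty were lost when an F test over the 4 groups was also required. Egr1, an immediate early gene of neuronal activity, had 0.99 (14 of 20 fits, and 0.75 without HD mouse 21, where it did not pass). Of 13 transporter and handling genes linked to methylmercury, 2 passed with positive estimates (1.77% of all genes did), the organic anion transporters Slc22a8 (0.80) and Slc22a6 (1.45), in 16 and 9 of 20 fits and neither of them without Se_HD mouse 30 (0.58 and 1.09). Both calls were also lost with the F test.

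Markers of tissue next to the hippocampus moved beside these genes. Of 12 markers of meningeal fibroblasts, 1 passed the interaction, the matrix protein Ogn (1.17, 11 of 20 fits, and 0.90 without Se_HD mouse 30, where it did not pass), the median interaction was 0.80, and 7 of the 12 were higher in Se_HD than in Se_Ctr mice (1.71% of all genes). Their mean score ran from −0.50 to 1.08 in Se_HD, −0.84 to −0.29 in Se_Ctr, −0.48 to 0.84 in HD and −0.63 to 0.68 in Ctr mice. Of 16 choroid plexus markers, 0 passed the interaction, and but 13 had a negative estimate, with a median of −0.69. Of the 16, 12 were higher in HD than in Ctr mice (6.78% of all genes) and 0 higher in Se_HD than in Se_Ctr mice, at median changes of 1.43 and 0.73. Their score ran from −2.20 to 1.89 in Ctr, −0.34 to 2.18 in HD, 0.06 to 1.48 in Se_Ctr and 0.36 to 2.39 in Se_HD mice. With this score as a covariate, 576 negative and 342 positive interactions were called, and the negative counts were 14 of 18 resting and 16 of 25 activated microglial, 7 of 15 complement, 12 of 22 lysosomal and 6 of 26 reactive astrocyte genes. The part of the meningeal markers in the positive interactions was not tested.

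Over the 20 libraries, 5768208 to 11270577 reads fell on genes, with group medians of 7119788 in Ctr, 10159514 in HD, 9873274 in Se_Ctr and 9406503 in Se_HD mice. HD mouse 21 stood apart on the first principal component of all genes, Ctr mouse 1 on the second and HD mouse 15 on the third. Without these 3 mice, 879 interactions were called, and the negative counts were 14 of 18 resting and 14 of 25 activated microglial, 6 of 15 complement and 12 of 22 lysosomal genes. The reactive astrocyte list then held 5 negative and 1 positive interaction, at a median of −0.26. With all libraries thinned to the reads of the shallowest, 873 were called (520 negative and 353 positive). The naming rule picked many of the 85 named genes by the interaction p itself. That 76 of them had p under 0.05 is therefore a product of the choice and no support. Of these 76, 45 kept it whichever mouse was left out. In 14 of the 85, the lowest HD value lay above the highest value of the other 25 mice of the series, low-dose groups included, among them Clec5a, Tyrobp, Mpeg1, Cd84, Gfap, C1qa, Irf8, Clu and C4b. The share over all genes was not counted. Since the 85 were chosen from these same mice, the count is a description and no test.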

How the data were processed

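Hippocampal RNA of 30 male BALB/c mice was sequenced from libraries made with a stranded mRNA kit, per the labels (single-end reads of 75 bases). Per the labels and the study's methods, the authors trimmed reads with Trim Galore 0.4.2, aligned them to NCBIM37 with HISAT2, counted them per gene with featureCounts, removed genes with fewer than 10 reads in all and divided the counts by DESeq2 size factors. The deposited values are this signal, normalized counts of 21412 genes. Dividing each library by its step gave whole reads for 100% of values (tolerance 0.1), and these reads were used for depth and for count models.

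Here, log2(value + 1) of the 20 Ctr, HD, Se_Ctr and Se_HD libraries was fitted with limma 3.58.1 (R 4.3.3, intensity-dependent prior, one mean per group) over 20582 genes with a sum of at least 10. Calls were made at p under 0.05, unadjusted and after Benjamini-Hochberg adjustment over all genes. A list score is the mean, over its genes averaging 10 or more, of log2(value + 1) relative to the Ctr mean. Alternatives were edgeR 4.0.16 and DESeq2 1.42.0 on recovered reads, other filters, pseudocounts and covariates, a replicate block and leaving out each mouse. Thinning and the removal of 3 mice together were chosen after seeing the data. The fit was tested on simulated data that had the same dispersion in every group. The 33 gene lists and the named genes were chosen with earlier results of these data known. Named were, at a mean of at least 10, the 10 lowest interaction p-values, the 5 highest and 5 lowest called estimates, the 10 lowest p-values of the averaged mercury effect, called list members and 14 genes set in advance. Promoters came from a RefSeq table.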

Additional observations from a re-analysis of the deposited data

Results flagged for a closer look

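In 276 groups of 5 mice (35 genes, 33 list scores and the read totals, each in the 4 groups), the gap between the farthest mouse and its nearest neighbour was divided by the range of the group, and 13 ratios passed the critical value of 0.71. Chance gives about 13.8 in as many groups.

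In the Ctr group, mouse 1 lay apart for Vamp1 (0.788) and for the score of thalamus markers (0.785), and mouse 7 for the interferon score (0.737). In the HD group, mouse 21 lay apart for Vamp1 (0.718) and for the reactive astrocyte score (0.755), and mouse 15 for its reads on genes (0.821). In the Se_Ctr group, mouse 28 lay apart for Gstm1 (0.8) and for the selenoprotein (0.817), inhibitory neuron (0.823) and hippocampal subfield (0.76) scores, and mouse 22 for the endothelial score (0.77). In the Se_HD group, mouse 30 lay apart for Clu (0.751) and for the interferon score (0.723).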

How the results depend on the processing

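Interaction calls are unadjusted unless stated, and the intervals of low genes limit what could be seen. The count of 943 interactions fell to 561 when an F test over the 4 groups was also required, and ran from 805 to 1240 with each mouse left out. After adjustment it was 3 with DESeq2 and ran from 0 to 10 with a mouse left out. HD against Ctr gave 1301 calls with the F test, 2010 to 2690 with a mouse left out and 1710 without Ctr mouse 1 and HD mice 15 and 21. Its 122 adjusted calls became 42 to 295 with a mouse left out, 49 without the trend, 49 without Ctr mouse 1 and HD mice 15 and 21, 66 with a choroid plexus covariate, 200 with all 30 libraries, 213 with edgeR and 359 with DESeq2. Se_HD against Se_Ctr gave 269 with the F test, 358 at a mean of at least 10, 416 to 651 with a mouse left out and 768 without those 3 mice. The averaged mercury effect gave 28 adjusted calls, against 1 by limma without a trend, 45 with all 30 libraries, 10 with a choroid plexus covariate, 156 with DESeq2 and 7 to 94 with a mouse left out. With a replicate block on sets of library numbers, 992 interactions were called (612 negative and 380 positive), with a lowest adjusted p of 0.0865. Over all genes averaging 10 or more, the median correlation of residuals was −0.017 within sets and −0.0023 between them. No pairing of mice was seen in this measure, which cannot exclude a block effect on part of the genes. The sign changed for Sepp1 (−0.034 with the choroid plexus covariate, −0.18 without Ctr mouse 1 and HD mice 15 and 21, and −0.038 to 0.11 with a mouse left out), Txnrd1 (−0.12 to 0.090) and Gpx4 (−0.12 to 0.035). All of these had intervals around 0. For single genes, 2630 other values kept direction and side of the threshold, 308 lost the call and 20 gained it. The cause was not tested.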

Other observations

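Among genes with a mean under 10 normalized counts, which the naming rule left out, 2 were singled out after their values were seen because the interaction p was low. Glycam1, a mucin-like ligand of L-selectin, had 5.23 to 40.0 normalized counts in HD mice (median 12.1), 0 to 1.7 in Ctr, 0.827 to 2.34 in Se_Ctr and 0.762 to 1.89 in Se_HD mice. Its interaction was −3.40 on the log2(value + 1) scale, and its adjusted p of 0.177 was the lowest of all genes by limma with Benjamini-Hochberg adjustment. The low-dose groups had 1.05 to 9.96 in LD mice, which overlapped with HD mice, and 0.836 to 4.43 in Se_LD mice. Il1b, the cytokine interleukin 1 beta, had 3.21 to 17.1 in HD, 0 to 3.4 in Ctr, 0.864 to 4.96 in Se_Ctr and 0 to 1.52 in Se_HD mice, an interaction of −3.49. HD and Se_HD mice did not overlap for either gene. These levels rest on few reads, and the estimates depend on the pseudocount.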
